A study of Mus musculus with 6 samples.

Results

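The 10 sebaceous gland lipid genes *Scd1*, *Scd3*, *Elovl3*, *Far2*, *Awat1*, *Awat2*, *Soat1*, *Mgst1*, *Pparg* and *Mc5r* were examined in whole skin RNA-Seq of YAP2-5SA-∆C mice. The genes were chosen by name as a sebocyte list, with earlier results of these data known. They were found in the count table through their Ensembl identifiers in GENCODE release M21. All 10 were among the 26579 genes of the table, and all 10 were among the 15102 genes that could be tested. The table holds 6 libraries, WT1 to WT3 from 3 wild type mice and TG1 to TG3 from 3 YAP2-5SA-∆C transgenic littermates, all female and 33 days of age. YAP2-5SA-∆C mice carry a transgene for a mildly activated mutant of the transcriptional coactivator YAP, which is expressed in the basal keratinocytes of the skin, and they were taken when the visible phenotype had just begun. The wild type mice carry no transgene, and the labels give no treatment. Each library is a biopsy of dorsal neck skin, so epidermis, hair follicles, sebaceous glands, dermis, fat and muscle were measured together, and more sebocytes in the biopsy and more RNA per sebocyte cannot be told apart. The study asked which genes follow epidermal YAP activity, and for these genes the question is whether RNA of the sebaceous lipid pathway differed between the genotypes.

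Sebaceous glands sit on the hair follicle and release their product by the breakdown of whole sebocytes, which fill with lipid droplets as they mature. Mouse sebum is rich in wax esters, sterol esters and triglycerides. Fatty acids are desaturated and elongated, part of them are reduced to fatty alcohols, and the acids are then joined to fatty alcohols or to cholesterol. The nuclear receptor PPAR gamma drives sebocyte maturation, and a melanocortin receptor controls the secretion of exocrine glands, including the sebaceous gland.

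Between 11225705 and 19505036 counts per library were assigned to genes, and the 10 sebaceous genes took 0.270% to 0.396% of the counts in WT and 0.456% to 0.632% in TG skin. *Scd1* alone supplied 81.5% of these counts. Levels are given as CPM, the counts scaled to library size, after TMM scaling, and 1 count was worth 0.0523 to 0.0951 CPM, depending on the library. *Yap1* had 131 ± 9.47 CPM (SD, n = 3) in WT and 136.5 ± 7.32 CPM in TG skin, an edgeR log2 fold change of 0.06 (SE 0.07, FDR 0.635). Whether transgene reads were counted on *Yap1* is not given in the sources used here, so this gene does not check the labels. Several libraries stood apart. The summed level of 7 skeletal muscle genes was 1192 CPM in WT1, against 6353 and 5161 CPM in WT2 and WT3. In TG skin it was 1079 to 3024 CPM. The brown adipocyte gene *Ucp1* had 712 counts in WT2 and 1167 counts in TG3, against 4 to 14 counts in the other 4 libraries. TG2 had the lowest summed level of 12 hair shaft and inner root sheath genes, 1493 CPM against 7315 and 9245 CPM in the other TG libraries and 13820 to 17520 CPM in WT. P-values measure the spread among 3 mice of each genotype.

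The 4 genes of wax and sterol ester synthesis had the highest fold changes of TG over WT skin among the 10. Of them, 1 passed the test at an FDR of 0.05. *Soat1*, the enzyme that esterifies cholesterol, rose 1.91-fold and was the gene that passed. *Far2*, *Awat2* and *Awat1*, the reductase and the acyltransferases of wax ester synthesis, stood 2.45-fold, 2.34-fold and 2.26-fold above WT without passing it, with FDRs of 0.0555 to 0.0652 in edgeR's quasi-likelihood test. The desaturase and elongase genes *Scd1*, *Elovl3* and *Scd3* were 1.65-fold, 1.45-fold and 1.37-fold above WT, and *Mgst1*, *Pparg* and *Mc5r* had groups that overlapped. In 7 of the 10 genes every TG library lay above every WT library, where 15.5% of all tested genes did so. None of the 10 lay below WT in every library, where 18.2% of all tested genes did.

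**Figure D1:**
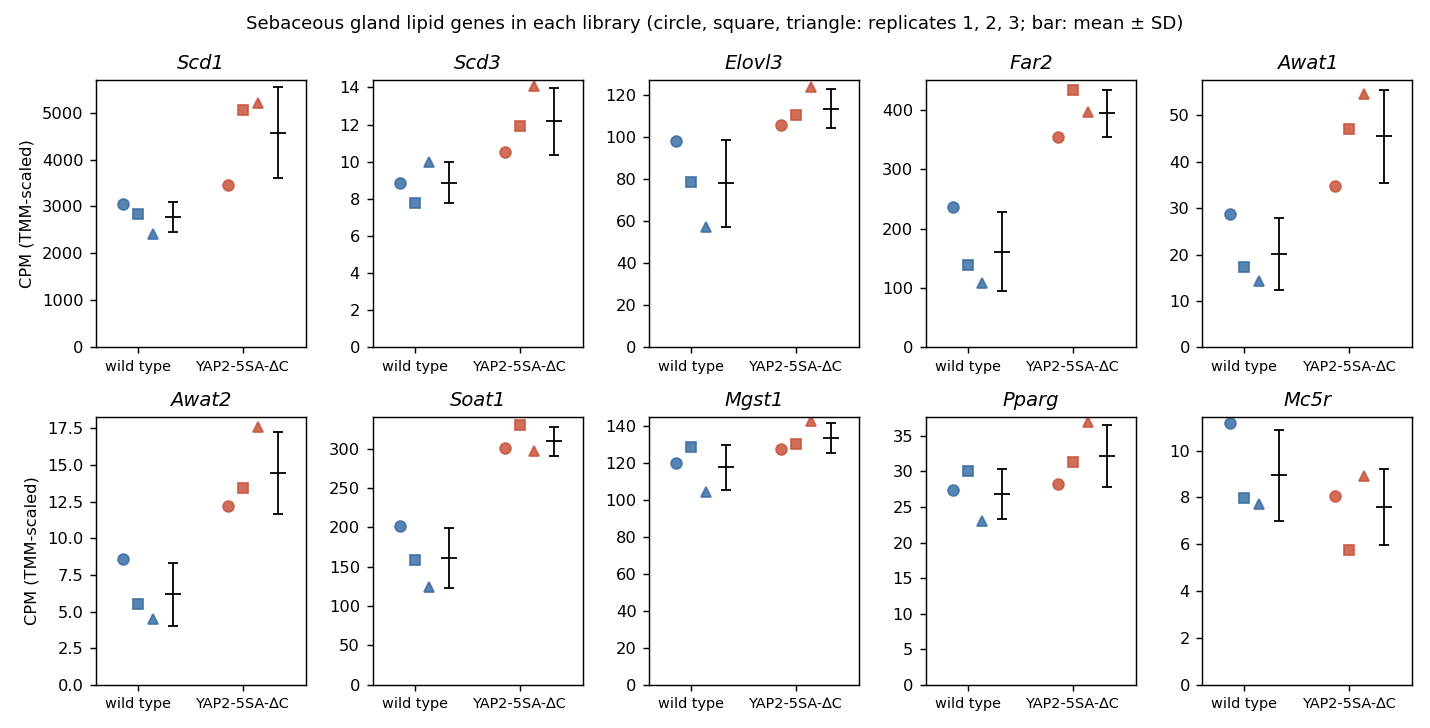
TMM-scaled CPM of each gene (vertical axis, from 0) in the 3 wild type (WT, blue) and 3 YAP2-5SA-∆C (TG, red) libraries, with circles, squares and triangles for replicates 1, 2 and 3 and bars for the mean ± SD. The groups are separate in the 7 genes from *Scd1* to *Soat1* and overlap in *Mgst1*, *Pparg* and *Mc5r*.

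*Soat1* (ENSMUSG00000026600, chr1:156424525-156474331, minus strand, GRCm38) encodes the sterol O-acyltransferase of the endoplasmic reticulum, which forms the cholesterol esters stored in lipid droplets. It had 201, 159 and 125 CPM in libraries WT1 to WT3 and 301, 329.9 and 297 CPM in libraries TG1 to TG3. All TG libraries were above all WT libraries, and they lay closer together than the WT libraries did. Means were 162 ± 38.3 CPM in WT and 309 ± 18.0 CPM in TG skin (SD, n = 3). The log2 fold change was 0.94 (SE 0.16, 95% interval 0.55 to 1.32). Its FDR was 0.0450 by the quasi-likelihood test of edgeR, 0.0480 by voom and 4.57e-05 by the edgeR likelihood-ratio test. The call was close to the threshold. It was kept without WT1 or TG2 (edgeR FDR 0.0355 and 0.0328) and lost without WT2 or WT3 (edgeR FDR 0.186 and 0.129) or TG1 or TG3 (edgeR FDR 0.0707 and 0.0906), while the log2 fold change stayed between 0.79 and 1.13.

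*Far2* (ENSMUSG00000030303, chr6:148047259-148182758, plus strand) encodes a peroxisomal fatty acyl-CoA reductase that supplies the fatty alcohols of wax esters. Its levels were 236, 138 and 109 CPM in libraries WT1 to WT3 and 354.5, 433 and 396 CPM in libraries TG1 to TG3. The lowest TG library was above the highest WT library, and the WT libraries were the more spread of the groups, with a highest to lowest ratio of 2.16 against 1.22. Means were 161 ± 66.5 CPM in WT and 395 ± 39.4 CPM in TG skin (SD, n = 3). The log2 fold change of 1.29 (SE 0.27, 95% interval 0.66 to 1.92) was the largest of the 10 genes, and its edgeR quasi-likelihood FDR was 0.0555. Without WT1, the library with the highest WT level, it was 1.68 with an edgeR FDR of 0.0299. The *Far2* gene shares 837 exon bases with *Ergic2* on the opposite strand, and the strand setting of the authors' counting is not stated. *Ergic2*, looked at because of this overlap, had 62.7 ± 0.747 CPM in WT and 59.4 ± 1.03 CPM in TG skin (SD, n = 3), so it was below *Far2* in both groups, and its log2 fold change was -0.08 (SE 0.05, edgeR FDR 0.373).

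The acyl-CoA wax alcohol acyltransferases join a fatty alcohol to a fatty acid, and their genes lie on the X chromosome. *Awat1* (ENSMUSG00000015665, chrX:100572251-100578205, plus strand) had 28.8, 17.3 and 14.3 CPM in libraries WT1 to WT3 and 34.8, 47.0 and 54.7 CPM in libraries TG1 to TG3. *Awat2* (ENSMUSG00000031220, chrX:100402221-100442717, minus strand) was lower throughout, with 8.58, 5.5 and 4.47 CPM in WT and 12.2, 13.5 and 17.6 CPM in libraries TG1 to TG3. Both genes had the same order of libraries, with WT3 lowest, WT1 highest in its group and TG3 highest of all, and neither had overlapping groups. *Awat1* went from 20.1 ± 7.66 to 45.5 ± 10.04 CPM (SD, n = 3), a log2 fold change of 1.17 (SE 0.28, 95% interval 0.51 to 1.83, edgeR quasi-likelihood FDR 0.0652). *Awat2* went from 6.18 ± 2.14 to 14.4 ± 2.81 CPM (SD, n = 3), a log2 fold change of 1.21 (SE 0.25, 95% interval 0.61 to 1.81, edgeR quasi-likelihood FDR 0.0569). Both passed without WT1 (edgeR FDR 0.0472 for *Awat1* and 0.0446 for *Awat2*), and *Awat2* also without TG2 (edgeR FDR 0.0471). The *Awat2* values rest on 47 to 282 counts per library, against 1311 to 5607 for *Soat1*.

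To show the start sites of the ester-forming genes, the 250 bases before the RefSeq start of *Soat1*, *Awat1* and *Awat2* are printed 5′ to 3′ on the strand of the gene (RefSeq, GRCm38.p6). *Soat1* is shown because it passed the test, and the *Awat* genes because they are the wax synthase pair. The windows are chr1:156474329-156474578 (minus strand) for *Soat1*, chrX:100571997-100572246 (plus strand) for *Awat1* and chrX:100442718-100442967 (minus strand) for the farther upstream of the RefSeq starts of *Awat2*. Capitals mark matches to the motifs searched.
Soat1: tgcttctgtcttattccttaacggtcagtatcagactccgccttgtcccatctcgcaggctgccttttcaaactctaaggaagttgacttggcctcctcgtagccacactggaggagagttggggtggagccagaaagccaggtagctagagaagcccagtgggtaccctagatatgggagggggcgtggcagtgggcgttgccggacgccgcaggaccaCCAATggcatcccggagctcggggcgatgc
Awat1: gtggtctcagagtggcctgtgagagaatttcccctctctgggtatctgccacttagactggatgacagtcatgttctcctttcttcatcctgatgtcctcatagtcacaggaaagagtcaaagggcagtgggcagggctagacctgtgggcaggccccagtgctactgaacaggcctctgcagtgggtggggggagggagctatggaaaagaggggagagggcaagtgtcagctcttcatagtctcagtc
Awat2: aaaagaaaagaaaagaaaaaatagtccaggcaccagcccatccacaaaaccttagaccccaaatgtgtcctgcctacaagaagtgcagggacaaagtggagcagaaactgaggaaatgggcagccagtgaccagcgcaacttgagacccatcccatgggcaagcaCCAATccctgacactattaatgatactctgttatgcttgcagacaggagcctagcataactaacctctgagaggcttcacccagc
Both strands of each window were searched for the TEAD motif GGAATG, the nuclear receptor half-site AGGTCA, the PPAR response element built of a pair of such half-sites with 1 base between, and therefore overlapping the half-site, the NF-Y motif CCAAT, the GC box GGGCGG and the TATA box TATAAA. *Soat1* held CCAAT from 30 to 26 bases before the start, *Awat2* held CCAAT from 85 to 81 bases before it, and *Awat1* held none of the motifs. In 32817 mouse promoter windows of this length, the shares with a match were 12.6% for the TEAD motif, 14% for the half-site, 0.0335% for the PPAR response element, 33.8% for CCAAT, 32.7% for the GC box and 12.4% for the TATA box. Of the 10 genes, 7 were searched (*Scd3*, *Mgst1*, *Far2*, *Awat1*, *Awat2*, *Soat1* and *Pparg*), and the other genes of the list were not. None of the windows of these 7 genes held GGAATG or the PPAR response element, which says only that these letters are not in these windows. Among the windows not printed, the GC box was found for *Mgst1*, *Far2*, *Pparg* and the other *Awat2* start. CCAAT was found for that *Awat2* start and for *Pparg*, which also held the half-site and the TATA box. *Scd3* held none of the motifs.

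*Scd1* (ENSMUSG00000037071, chr19:44394455-44407879, minus strand) encodes the main stearoyl-CoA desaturase of the sebaceous gland, which places a double bond in saturated fatty acids, and mice that lack it have shrunken sebaceous glands. It had 3056, 2847 and 2424 CPM in libraries WT1 to WT3 and 3452, 5061 and 5199 CPM in libraries TG1 to TG3. TG1 lay nearer to the WT libraries than to the other TG libraries, and the groups did not overlap. Means were 2776 ± 322 CPM and 4571 ± 971 CPM (SD, n = 3), with a log2 fold change of 0.72 (SE 0.19, 95% interval 0.27 to 1.17) and an edgeR quasi-likelihood FDR of 0.0773. Without TG1 the log2 fold change was 0.91 (edgeR FDR 0.0677).

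*Scd3* (ENSMUSG00000025202, chr19:44203269-44244016, plus strand), a desaturase of sebocytes and the Harderian gland, had 8.85, 7.80 and 9.99 CPM in libraries WT1 to WT3 and 10.5, 11.9 and 14.1 CPM in libraries TG1 to TG3. It was the 1 gene of the 10 in which WT3 was not the lowest WT library. Its means were 8.88 ± 1.1 and 12.2 ± 1.81 CPM (SD, n = 3), and the log2 fold change was 0.46 (SE 0.15, 95% interval 0.12 to 0.80, edgeR quasi-likelihood FDR 0.109), or 0.26 without both *Ucp1*-high libraries. The *Scd* genes are near-identical in part, since 3.15% of the 75-base windows of *Scd1* transcripts and 3.20% of those of *Scd3* also occur in another *Scd* gene or an unnamed neighbour, and a single read of that length from these windows has no unique place. *Elovl3* (ENSMUSG00000038754, chr19:46131897-46135694, plus strand), an elongase of saturated and monounsaturated fatty acids that is also used by brown fat, had 98.5, 79.0 and 57.2 CPM in WT and 106, 111 and 124 CPM in libraries TG1 to TG3. The WT libraries were spread over a ratio of 1.72 and the TG libraries over 1.17, without overlap. Its means were 78.2 ± 20.7 and 114 ± 9.35 CPM (SD, n = 3), with a log2 fold change of 0.54 (SE 0.18, 95% interval 0.11 to 0.97, edgeR quasi-likelihood FDR 0.126). The *Ucp1*-high TG3 was the highest *Elovl3* library and the *Ucp1*-high WT2 was the middle one of its group, and without both the log2 fold change was 0.48 (edgeR FDR 0.414).

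*Mgst1* (ENSMUSG00000008540, chr6:138140316-138156755, plus strand), a membrane glutathione transferase that is abundant in sebocytes, had 119.6, 128.5 and 104 CPM in WT and 127, 130 and 143 CPM in libraries TG1 to TG3. WT2 was above TG1, so the groups overlapped. The means were 117 ± 12.3 and 133 ± 8.21 CPM (SD, n = 3), and the log2 fold change was 0.18 (SE 0.09, 95% interval -0.03 to 0.40, edgeR quasi-likelihood FDR 0.247), or 0.11 without WT3. *Pparg* (ENSMUSG00000000440, chr6:115360951-115490399, plus strand), the nuclear receptor that sebocytes share with adipocytes, had 27.4, 30.1 and 23.0 CPM in WT and 28.3, 31.4 and 37.0 CPM in libraries TG1 to TG3. Here too WT2 was above TG1. Means were 26.8 ± 3.57 and 32.2 ± 4.41 CPM (SD, n = 3), with a log2 fold change of 0.26 (SE 0.13, 95% interval -0.05 to 0.57, edgeR quasi-likelihood FDR 0.260), and it was 0.17 without WT3 and 0.15 without TG3. *Mc5r* (ENSMUSG00000007480), the melanocortin receptor of exocrine glands, was the 1 gene with a negative estimate. It had 11.2, 7.95 and 7.71 CPM in WT and 8.07, 5.77 and 8.92 CPM in libraries TG1 to TG3, with WT1 highest and the groups overlapping. The log2 fold change was -0.24 (SE 0.21, 95% interval -0.74 to 0.26, edgeR quasi-likelihood FDR 0.499). This value rested on single libraries, since it was -0.04 without WT1, -0.06 without TG2, -0.37 without TG3 and -0.45 without both *Ucp1*-high libraries.

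**Figure D2:**
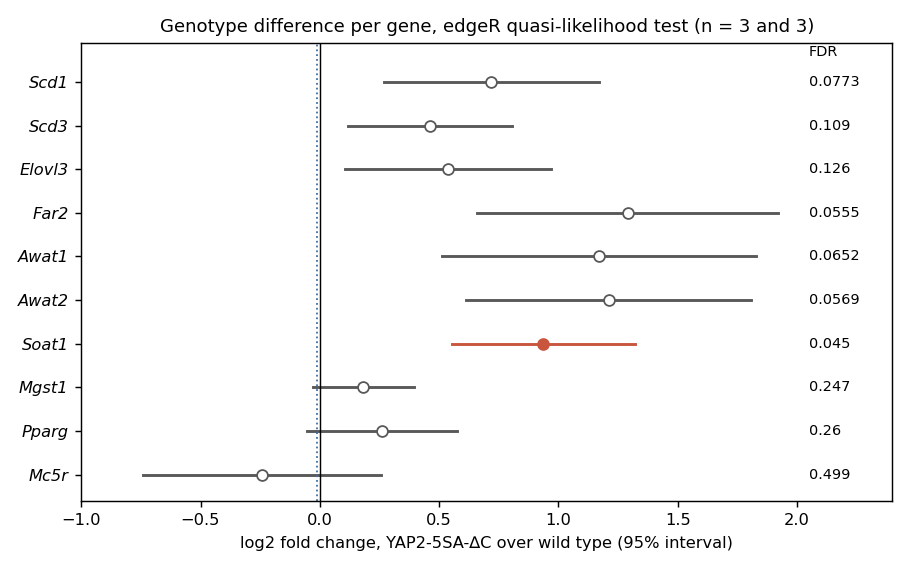
Log2 fold change of TG over WT (horizontal axis) with its 95% interval for each gene, from edgeR's quasi-likelihood test with 3 libraries per group and the FDR at the right. *Soat1* (filled) passed an FDR of 0.05, the intervals of *Mgst1*, *Pparg* and *Mc5r* reach 0, and the dotted line is the median of all tested genes, -0.01.

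Across the list, 9 of 10 log2 fold changes were above 0 and 1 was below, with a median of 0.63. Over all 15102 tested genes, the median was -0.01, 47.6% of the values were above 0, and 4.58% were above the median of the sebaceous genes. By edgeR's quasi-likelihood test at an FDR below 0.05, 1 of the 10 genes was called higher, where 1.44% of all tested genes were, and 0 were called lower, where 0.464% were. None was lower at an unadjusted p below 0.05, where 13% of all tested genes were, or called lower by the likelihood-ratio test, voom or DESeq2, where 4.87%, 0.417% and 4.18% were. At an FDR below 0.1 the same test gave 5 genes (*Soat1*, *Far2*, *Awat2*, *Awat1* and *Scd1*) against 7.26% of all genes, and at an unadjusted p below 0.05 it gave 7 against 13.3%. How many passed depended on the test. Voom gave 1 gene against 1.23% of all genes, the edgeR likelihood-ratio test gave 5 against 5.52%, and DESeq2 gave 6 against 6.35%, the sixth being *Elovl3*. The 10 genes are one list of related function measured in the same 6 biopsies and are not independent of each other.

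Most of the genes shared an order of the biopsies within each genotype. Averaged over the 10 genes, the log2 level relative to the WT mean was 0.27, -0.06 and -0.30 in libraries WT1 to WT3 and 0.48, 0.63 and 0.81 in libraries TG1 to TG3. WT1 was the highest WT library in 7 genes and WT3 the lowest in 9. TG1 was the lowest of its group in 8 genes and replicate 3 the highest in 8. WT1 and TG1 were the nearest pair of libraries across the groups on this average. In 6 genes the ratio of the highest to the lowest library was larger in WT than in TG skin, and *Far2*, *Awat1* and *Awat2* had the largest WT ratios, 2.16, 2.02 and 1.92.

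**Figure D3:**
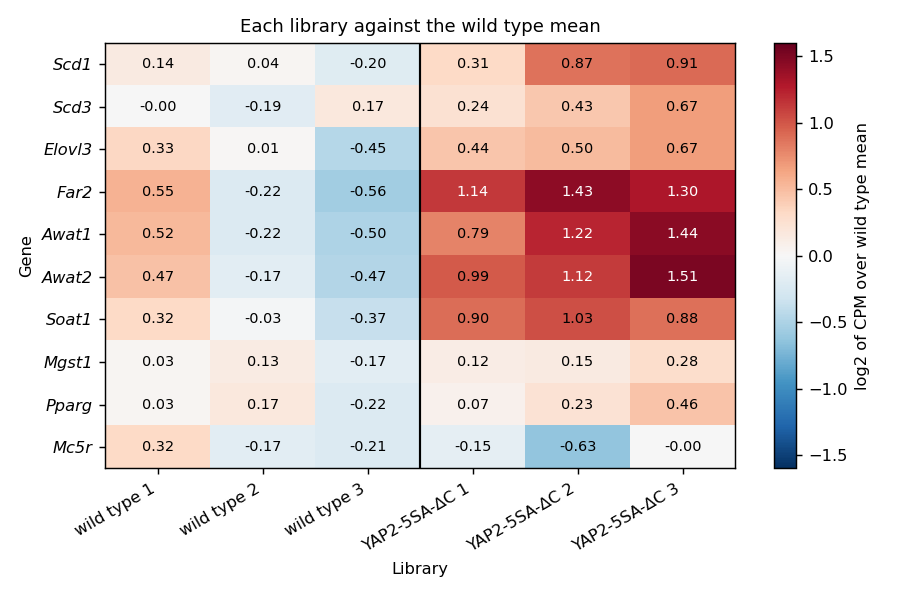
Log2 of the CPM in each library (columns) over the WT mean for each gene (rows), with red above and blue below that mean. *Far2*, *Awat1*, *Awat2* and *Soat1* reach 0.79 to 1.51 in the TG libraries, WT3 is below the mean in 9 genes, and *Mc5r* is below it in all TG libraries.

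The levels of the genes differed widely. On the scale of CPM per kilobase of exon, *Scd1* had 567 in WT and 934 in TG skin, and ranked 49 and 26 among the 15102 tested genes. *Mgst1* followed with 58.3 and 66.2, then *Elovl3* with 39.6 and 57.6, *Far2* with 22.1 and 54.0, *Soat1* with 16.5 and 31.6, *Awat1* with 14.5 and 32.7, and *Pparg* with 9.09 and 10.9. *Awat2* with 2.91 and 6.79, *Scd3* with 2.5 and 3.43 and *Mc5r* with 2.29 and 1.94 were the lowest. In that ranking *Awat2* stood at 9733 in WT and 5809 in TG skin, *Awat1* at 2758 and 1002, *Soat1* at 2342 and 1049, and *Far2* at 1667 and 561. All 10 genes were counted in every library, the least being 47 counts, for *Awat2* in WT3.

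Other genes of lipid handling were counted from lists of related genes. By the quasi-likelihood test of edgeR at an FDR below 0.05, 1.44% of all tested genes rose and 0.464% fell, or 1.23% and 0.417% by voom. Beside each list stand its counts at an unadjusted p below 0.05 in edgeR's quasi-likelihood test, by the likelihood-ratio test and by DESeq2, which over all tested genes gave 13.3%, 5.52% and 6.35% higher and 13%, 4.87% and 4.18% lower. Among 17 tested paralogues of the sebaceous genes, 2 rose and 0 fell, and their median log2 fold change was 0.40. At the unadjusted p 10 paralogues were higher and 1 was lower, the likelihood-ratio test called 8 higher and 2 lower, and DESeq2 called 9 higher and 1 lower. *Elovl6*, which elongates palmitate, rose from 445 ± 132 to 1092 ± 139 CPM (SD, n = 3; log2 fold change 1.30, SE 0.22, edgeR FDR 0.0437). *Elovl7*, an elongase of very long fatty acids, rose from 115 ± 5.29 to 162 ± 15.1 CPM (SD, n = 3; log2 fold change 0.50, SE 0.08, edgeR FDR 0.0436). Of 15 lipid droplet and fatty acid modification genes, 2 rose and 0 fell, with a median of 0.32. At the unadjusted p 7 of these were higher and 3 lower, the likelihood-ratio test called 4 higher and 2 lower, and DESeq2 called 3 higher and 3 lower. *Plin2*, the coat protein of lipid droplets, rose from 99.8 ± 12.4 to 160.4 ± 18.2 CPM (SD, n = 3; log2 fold change 0.68, SE 0.12, edgeR FDR 0.0437), and the acyl-CoA synthetase *Acsbg1* rose from 83.4 ± 12.3 to 153 ± 24.7 CPM (SD, n = 3; log2 fold change 0.87, SE 0.14, edgeR FDR 0.0437). Of 15 genes of fatty acid supply, 1 rose. *Acsl5*, which activates long fatty acids, went from 165 ± 19.9 to 247 ± 15 CPM (SD, n = 3; log2 fold change 0.58, SE 0.10, edgeR FDR 0.0437). By edgeR's quasi-likelihood test none of these 15 fell, 14 had log2 fold changes above 0, and the median was 0.41. At the unadjusted p 9 supply genes were higher and 1 was lower, the likelihood-ratio test called 4 higher and 1 lower, and DESeq2 called 7 higher and 1 lower. Of 12 tested genes of sebocyte progenitors, the gland duct and sebocyte regulators, 0 passed edgeR's quasi-likelihood test or voom in either direction, the lowest edgeR FDR was 0.0684, 8 were above 0, and the median was 0.17. At the unadjusted p this list had 3 genes higher and 3 lower, the likelihood-ratio test called 1 higher and 0 lower, and DESeq2 called 2 higher and 0 lower.

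**Figure D4:**
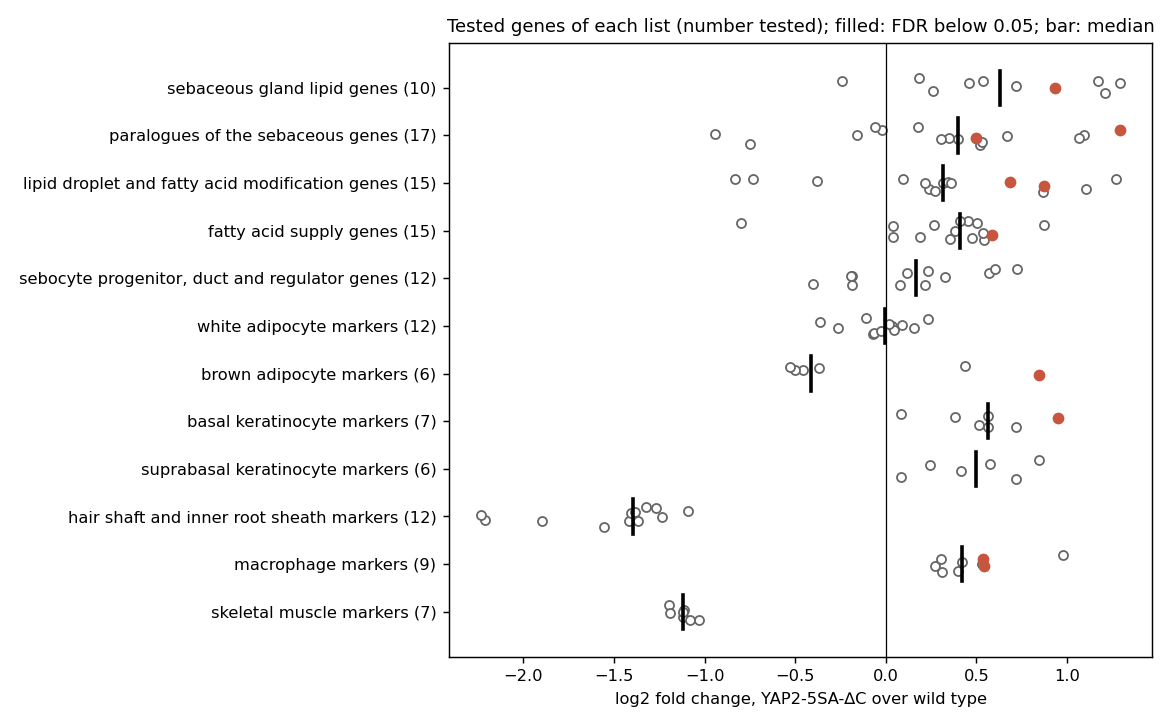
Log2 fold change of TG over WT (horizontal axis) for each tested gene of the sebaceous list, the related lipid lists and the markers of other cell types (rows, with the number tested), filled where the edgeR FDR was below 0.05, with a bar at the median. The sebaceous genes have the highest median, 0.63, and the hair genes the lowest, -1.40.

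Because *Scd1*, *Pparg* and several lipid genes are also used by fat, and the biopsies hold other tissues, markers of those cells were counted beside the sebaceous genes. White adipocyte markers (12 of 12 tested, among them *Adipoq* and *Plin1*) had 0 genes called in edgeR's quasi-likelihood test with a lowest FDR of 0.292, a median log2 fold change of -0.01, and 6 genes on each side of 0. For these markers 0 were below an unadjusted p of 0.05, and 0 were called by the likelihood-ratio test, voom or DESeq2. Their summed level was 2339 to 3282 CPM in WT and 2154 to 3133 CPM in TG skin, while the summed level of the sebaceous genes was 2879 to 3797 CPM and 4435 to 6291 CPM. Brown adipocyte markers (6 of 7 tested) had a median of -0.41, and their summed level, which includes *Ucp1*, was 41.5 to 106 CPM in WT and 56.6 to 133.5 CPM in TG skin. Without *Ucp1* the sums were 40.7, 68.9 and 57 CPM in libraries WT1 to WT3 and 56.3, 59 and 60.7 CPM in libraries TG1 to TG3, so TG3 was close to the other TG libraries. *Dio2*, a deiodinase, was the 1 of these 6 that rose, also by the likelihood-ratio test, voom and DESeq2, with 12.2 ± 0.206 and 21.9 ± 3.83 CPM (SD, n = 3; log2 fold change 0.85, SE 0.13, edgeR FDR 0.0401). Without both *Ucp1*-high libraries 0 of the 10 sebaceous genes passed edgeR's quasi-likelihood test (3 at an unadjusted p below 0.05), and 0 of all 14730 genes in that fit passed it (15.9% at an unadjusted p below 0.05). In it *Soat1* had a log2 fold change of 0.95 (edgeR FDR 0.286), and the list kept its signs.

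Like most of the sebaceous genes, markers of epidermis and macrophages had log2 fold changes above 0, and markers of hair and muscle had log2 fold changes below 0. All 7 basal keratinocyte markers were above 0 (median 0.56), *Krt14* rose from 1648 ± 19.6 to 3187 ± 300.2 CPM (SD, n = 3; log2 fold change 0.95, SE 0.11, edgeR FDR 0.0300), and the summed level was 3593 to 4358 CPM in WT and 5903 to 7540 CPM in TG skin. Of the basal markers 5 were higher at an unadjusted p below 0.05 (13.3% of all tested genes), 3 by the likelihood-ratio test (5.52%) and 5 by DESeq2 (6.35%). All 6 tested suprabasal keratinocyte markers were above 0 (median 0.50) with 0 called by edgeR's quasi-likelihood test or voom, a lowest edgeR FDR of 0.0596, and 2 genes higher at an unadjusted p below 0.05, by the likelihood-ratio test and by DESeq2. All 9 macrophage markers were above 0 (median 0.42), *Csf1r* (log2 fold change 0.54, edgeR FDR 0.0456) and *Mrc1* (log2 fold change 0.54, edgeR FDR 0.0341) rose, and the summed level was 422 to 509.7 CPM against 599 to 675 CPM. Of the macrophage markers 8 were higher at an unadjusted p below 0.05, 4 by the likelihood-ratio test and 6 by DESeq2. All 12 tested hair shaft and inner root sheath markers lay below WT in every TG library, as did 18.2% of all tested genes, with a median of -1.40 and with 0 called in edgeR's quasi-likelihood test and a lowest FDR of 0.106. For the hair markers 11 were lower at an unadjusted p below 0.05 (13% of all tested genes), 11 by the likelihood-ratio test (4.87%), and 0 by voom (0.417%) or DESeq2 (4.18%). The 7 skeletal muscle markers had a median of -1.12 with overlapping groups and a lowest edgeR FDR of 0.246. Their summed level was 1192, 6353 and 5161 CPM in libraries WT1 to WT3 and 3024, 1719 and 1079 CPM in libraries TG1 to TG3. None of the muscle markers was below an unadjusted p of 0.05 or called by the likelihood-ratio test, voom or DESeq2. Of 7 listed suprabasal markers 6 were found in the count table, and of 13 listed hair markers 12 were. The part of these cells in the levels of the sebaceous genes was not tested.

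**Figure D5:**
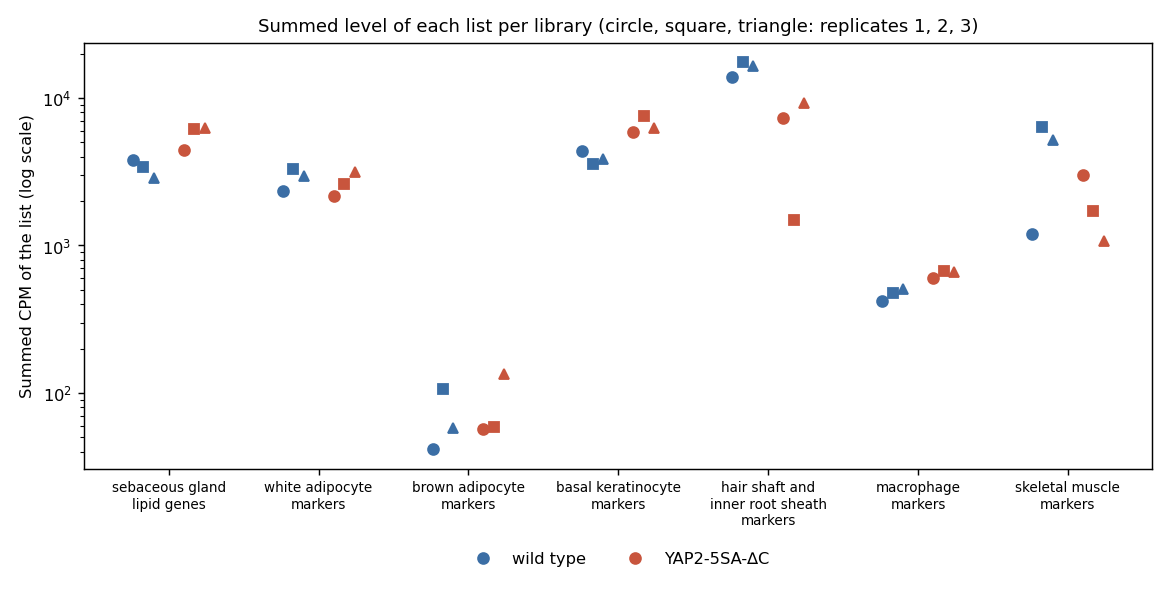
Summed CPM of the sebaceous genes and of the markers of 6 cell types (log scale) in each library, with blue for WT, red for TG and circles, squares and triangles for replicates 1, 2 and 3. The sebaceous sums are 2879 to 3797 CPM in WT and 4435 to 6291 CPM in TG skin, the white adipocyte sums overlap, and the hair sum is lowest in TG2 at 1493 CPM.

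The tested genes whose profile over the 6 libraries was most like the mean profile of the 10 sebaceous genes were found by the root mean square difference of centred log2 CPM. The nearest was *Rdh11*, with a difference of 0.06 on the log2 scale, levels of 54.6 ± 9.39 and 90.2 ± 9.52 CPM (SD, n = 3), a log2 fold change of 0.72 (SE 0.14) and an edgeR FDR of 0.0505. *Mrgprx2*, *Emc9*, *Hsd17b12*, *Idi1*, *Lpcat3*, *Ldhb*, *Cers5*, *Dpyd* and *Mmp19* followed, with differences of 0.06 to 0.09. Among these, *Hsd17b12*, a reductase of the fatty acid elongation cycle, had 105.8 ± 21.2 and 161 ± 11.7 CPM (SD, n = 3), and *Idi1*, an isomerase of the isoprenoid pathway to cholesterol, had 91.5 ± 20.4 and 138 ± 7.22 CPM (SD, n = 3). Likeness was measured over 6 libraries that include the genotype difference, and it is a description.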

How the data were processed

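RNA of dorsal neck skin from 3 wild type (WT) and 3 YAP2-5SA-∆C transgenic (TG) mice was sequenced as 75-base paired-end reads. The authors deposited a table of unnormalised counts for Ensembl genes, made from reads mapped to GRCm38 and counted with HTSeq. The submitters' processing notes name TopHat2 2.0.12 and Bowtie2 2.1.0, while the study's methods give another version of TopHat2. The strand setting and annotation release are not given in the sources used here. Libraries were grouped by the labels, and every column matched 1 mouse by name. Gene names and positions were taken from GENCODE M21, in which 26021 of the 26579 identifiers were found.

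The 15102 genes that reached 1 CPM in 3 or more libraries were kept and scaled with TMM. edgeR 4.0.16 (R 4.3.3) was used for the quasi-likelihood test (glmQLFit, glmQLFTest) with genotype as the only term and Benjamini-Hochberg adjustment over all tested genes at an FDR of 0.05. The SE was the log2 fold change divided by the square root of F, and 95% intervals were computed from it. The edgeR likelihood-ratio test, voom (limma 3.58.1) and DESeq2 1.42.0 were run as alternatives, with other scalings, other filters, a replicate block and each library left out. The tests were tried on simulated data. No list was tested as a set. The sebaceous genes, the other lists and the tests were chosen with earlier results of these data known. The text names all 10 sebaceous genes, genes of the other lists with an FDR below 0.05 with up to 2 defining genes of a cell type, *Yap1*, and the 10 genes nearest in profile (prior count 2). *Ergic2*, as an overlapping gene, and the lower genes of the closing observations were chosen after their values were seen. Same-numbered mice did not vary together (correlations of -0.33, -0.23 and -0.05 for numbers 1, 2 and 3), so the numbers were not taken to pair them. *Awat2*, *Scd3* and *Mc5r* had the fewest counts, 47 to 282 per library.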

Additional observations from a re-analysis of the deposited data

How the results depend on the processing

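The 10 sebaceous genes kept the sign of their log2 fold change in all 170 results under the 17 alternatives, while the number called varied. The 1 sebaceous gene called, of 288 genes in all, became 3 of 497 with no low-count filter, 5 of 1568 with the likelihood-ratio test and 6 of 1590 with DESeq2. It became 0 of 0 with a replicate block (2949 genes at an unadjusted p below 0.05, edgeR; *Soat1* log2 fold change 0.96, FDR 0.162), and the block is no pairing of these mice. It also became 0 of 0 without the libraries high in *Ucp1*, an alternative chosen after seeing the data (2346 genes at an unadjusted p below 0.05, edgeR). Leaving out 1 library at a time gave 0 to 4 sebaceous genes and 0 to 816 genes in all. The count over all genes was 0 without WT2 or WT3 or TG3 (2725, 2844 and 3692 at an unadjusted p below 0.05, edgeR), 142 without WT1, 86 without TG1 and 816 without TG2. The 4 sebaceous genes called without WT1 were *Far2*, *Awat1*, *Awat2* and *Soat1*, and the 2 called without TG2 were *Awat2* and *Soat1*. With RLE or upper-quartile scaling, a minimum of 10 counts in every library, voom, the legacy quasi-likelihood fit and library sizes without mitochondrial genes, 1 sebaceous gene was called, of 357, 416, 306, 249, 335 and 372 genes in all. The cause of these differences was not tested.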

Other observations

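Of the 47 tested genes in the 3 lists of related lipid genes, 22 lay above WT in every TG library (46.8%, against 15.5% of all tested genes) and 5 lay below it in every TG library (10.6%, against 18.2%). The 5 lower genes are named here after their values were seen. None of the 5 passed edgeR's quasi-likelihood test or voom, all 5 had an unadjusted p below 0.05 in the former, all 5 passed DESeq2 (adjusted p 0.000193 to 0.0452), and the 4 other than *Fads1* passed the edgeR likelihood-ratio test. *Mgst3*, a paralogue of *Mgst1* by family name, had 57.6, 67.8 and 61.7 CPM in libraries WT1 to WT3 and 41.1, 28.7 and 41.6 CPM in libraries TG1 to TG3 (log2 fold change -0.75, SE 0.15, edgeR FDR 0.0530). *Acsl3*, an acyl-CoA synthetase of lipid droplets, had 64.7, 79.9 and 83.5 CPM in WT and 48.2, 32.0 and 50.9 CPM in TG skin (log2 fold change -0.80, SE 0.18, edgeR FDR 0.0626), where *Acsl5* of the same family rose. The polyunsaturated fatty acid desaturase genes *Fads1* and *Fads2*, with their relative *Fads3*, had log2 fold changes of -0.38, -0.73 and -0.83 (SE 0.10, 0.21 and 0.25; edgeR FDR 0.0813, 0.0926 and 0.0982). Each of these genes was lowest in TG2 or TG3.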
